A study of Homo sapiens with 8 samples.

Results

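The nuclear pore complex is the protein channel through which RNA and protein pass between nucleus and cytoplasm. The genes described are 31 that encode its subunits (nucleoporins) or proteins that work at the pore, taken from a list of symbols and found on the array through the annotation of its probes. They had 48 of 47220 probes, and 30 of the 31 genes had a probe above background and entered the test, among 12300 genes in all. The exception was POM121, which encodes a membrane-anchored nucleoporin: its probe was above background on 0 of the 7 arrays with detection values, at intensities of 59.3 to 85.4 on the 8 arrays, and it was not tested.

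The cells were 293T, a line derived from human embryonic kidney cells that carries the SV40 T antigen, measured on 8 Illumina bead arrays with 2 arrays in each of 4 groups. The control group expressed a control hairpin RNA (NCsh), and the other groups expressed a hairpin that depleted the linker histone H1.2 (H1.2sh), the ubiquitin ligase scaffold Cul4A (Cul4Ash) or PAF1, a subunit of a complex that accompanies RNA polymerase II (PAF1sh). No drug, time point or further allele is named in the labels, and every group, the control included, carried a hairpin. The labels name 1 hairpin for each target and no rescue, so loss of the target and other effects of its hairpin cannot be told apart, and they name no separate cultures behind replicate arrays, so that p-values may measure technical spread only.

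Each targeted gene fell in its own depletion. H1-2 changed by -1.11 ± 0.09 in H1.2sh (log2 change ± SE of the limma fit, adjusted p = 4.37e-05), CUL4A by -1.51 ± 0.08 in Cul4Ash (adjusted p = 6.93e-06) and PAF1 by -2.58 ± 0.08 in PAF1sh (adjusted p = 5.72e-08), and none of the 3 passed the threshold in a depletion of another target. Of 8 genes chosen as 293T markers 7 were measured, and of 9 markers of other cell types 3 were, namely ALB (above background on all 7 arrays with detection values), MS4A1 (on 3) and HBB (on 2). The 293T markers differed between the groups, in both directions. With H1.2 depleted 2 of 7 passed, 1 higher and 1 lower. The Cul4Ash and PAF1sh groups had 4 each, 2 higher and 2 lower. These shares were 28.6%, 57.1% and 57.1%, beside 15.4%, 20.6% and 38.9% of all genes. The lowest changes were those of the neurofilament gene NEFM (-1.43 ± 0.08 in Cul4Ash and -2.12 ± 0.08 in PAF1sh) and of INA, another (-1.14 ± 0.08 in H1.2sh). The highest were 0.63 in Cul4Ash, 0.48 in PAF1sh and 0.43 in H1.2sh. Of the other markers ALB passed in PAF1sh (0.39 ± 0.10). Their part in the results on the pore genes was not tested. Median intensities of the arrays were 82.8 to 88.7, and the number of arrays limits the precision of all values.

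A nuclear pore is built from repeats of a few subcomplexes. The Y-shaped outer ring complex and the inner ring form the scaffold, transmembrane nucleoporins anchor it in the nuclear envelope, and nucleoporins with phenylalanine-glycine (FG) repeats fill the central channel. Filaments on the cytoplasmic face release exported mRNA, and the basket on the nuclear face takes part in docking cargo and in organising chromatin nearby. Cargo is carried by importins and exportins, whose direction is set by the small GTPase Ran.

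The levels of 4 genes moved by close to 1 on the log2 scale in at least 1 depletion, more than any other member moved against NCsh. NUP160 rose in each depletion, NUP153 fell in H1.2sh, and SEH1L and NUP210 fell in PAF1sh. In Cul4Ash the change of NUP160 (0.72) was smaller than that of NUP43 (-0.78). The promoters of the 4 genes are shown because these genes carry the main differences. Each sequence is the 250 bases before the most upstream start that RefSeq lists for the gene (GRCh38.p14), 5′ to 3′ on the strand of the gene, and capitals mark every match on either strand to the motifs named after the sequences. NUP160 lies on the minus strand (chr11:47848545-47848794), as do NUP153 (chr6:17706926-17707175) and NUP210 (chr3:13420323-13420572), and SEH1L lies on the plus strand (chr18:12947761-12948010).
NUP160: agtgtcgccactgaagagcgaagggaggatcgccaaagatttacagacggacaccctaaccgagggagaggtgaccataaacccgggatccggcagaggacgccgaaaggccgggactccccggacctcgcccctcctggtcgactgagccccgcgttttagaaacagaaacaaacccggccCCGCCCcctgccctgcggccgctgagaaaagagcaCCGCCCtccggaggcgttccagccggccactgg
NUP153: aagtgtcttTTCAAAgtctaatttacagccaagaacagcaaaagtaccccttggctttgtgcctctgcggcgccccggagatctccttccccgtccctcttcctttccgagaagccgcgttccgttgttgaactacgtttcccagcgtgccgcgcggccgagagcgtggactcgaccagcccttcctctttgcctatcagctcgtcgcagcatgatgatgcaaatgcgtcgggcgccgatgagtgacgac
SEH1L: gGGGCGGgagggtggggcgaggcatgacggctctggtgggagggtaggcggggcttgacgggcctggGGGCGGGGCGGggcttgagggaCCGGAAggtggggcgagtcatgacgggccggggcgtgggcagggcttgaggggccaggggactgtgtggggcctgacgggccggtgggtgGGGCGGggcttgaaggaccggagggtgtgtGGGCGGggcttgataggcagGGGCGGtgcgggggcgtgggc
NUP210: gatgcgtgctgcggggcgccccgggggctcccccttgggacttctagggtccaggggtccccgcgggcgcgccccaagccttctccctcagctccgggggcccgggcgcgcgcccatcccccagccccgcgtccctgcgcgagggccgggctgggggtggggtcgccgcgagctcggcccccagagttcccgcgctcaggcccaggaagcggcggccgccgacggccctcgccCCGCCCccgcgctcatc
The motifs searched, chosen with the expression results known, were GGGCGG (GC box), CCAAT (bound by NF-Y), CCGGAA (core of ETS factor sites), the NRF1 palindrome (GCGCA followed by its reverse complement), CACGTG (E-box), TTTGAA (CHR element of cell cycle genes) and TATAAA (bound by the TBP subunit of TFIID). The GC box was in the windows of NUP160 (2 matches), NUP210 (1 match) and SEH1L (6 matches, 2 of which overlap by 1 base), and not in that of NUP153, which held 1 CHR match. SEH1L also held 1 ETS match. The 4 windows had 64.8%, 57.2%, 76.4% and 80.8% G and C, in the order printed.

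A promoter window was found for 28 of the 31 genes. ETS cores were in 14 of these 28 (50%), against 24.5% of the 9837 windows of tested genes and 14.8% of all 27305 windows. The NRF1 palindrome was in 3 (10.7%, those of NUP107, NUP62 and NUP50), against 1.97% and 1.13%. GC boxes were in 46.4% of the members' windows, against 65.8% and 42.2%, CCAAT boxes in 32.1%, against 35.6% and 33%, E-boxes in 7.14%, against 8.94% and 6.46%, and CHR elements in 21.4%, against 8.77% and 13.6%. TATAAA was in 0 of the 28 windows, against 6% and 11.2%. A match here is a run of letters, not a site shown to be bound.

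How far each depletion moved the pore genes was asked by setting each group against NCsh. Changes are differences of log2 normalized intensity, and a gene is said to rise, fall or differ where the Benjamini-Hochberg adjusted p of limma over all 12300 genes was under 0.05. In a bulk sample less RNA per cell cannot be told apart from fewer cells that express the gene. Every one of the 30 measured members was above background on all 7 arrays with detection values. The intensities are background-adjusted, but a probe not above background still carries intensity, as that of POM121 did (59.3 to 85.4). Since some background thus remains, fold changes are likely understated, most of all for dim genes such as NUP58 and RANBP2.

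In H1.2sh, 5 of 30 members rose and 2 fell. Of all 12300 genes 15.4% passed the test (7.28% higher and 8.15% lower), and among the members 23.3% did. The median change of the members was 0.06 and that of all genes -0.01, and the median size of change was 0.16 for the members and 0.13 for all genes. In Cul4Ash, 6 rose and 3 fell, which is 30% of the members against 20.6% of all genes (11% higher and 9.6% lower). The median change was 0.04 for the members and 0.00 for all genes, and the median sizes were 0.18 and 0.14. In PAF1sh, 9 rose and 6 fell, 50% of the members against 38.9% of all genes (19% higher and 19.9% lower), with median changes of -0.04 and 0.00 and median sizes of 0.27 and 0.20. The pore genes thus did not move as a block in any depletion, and whether their share of calls differs from that of all genes was not tested. With median scaling of the arrays the counts were 1 up and 2 down in H1.2sh, 1 and 4 in Cul4Ash and 5 and 6 in PAF1sh. Of all genes, 264 rose and 1198 fell in H1.2sh there, 503 and 1279 in Cul4Ash and 1483 and 2248 in PAF1sh. Without normalization between arrays the members' counts were 1 and 2, 2 and 2, and 4 and 6. Those of all genes were 201 and 1215, 571 and 794, and 1413 and 2069. The excess of rising over falling members is thus seen with quantile normalization and not with these scalings. Under these scalings falls outnumbered rises among all genes too, in each depletion.

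**Figure D1:**
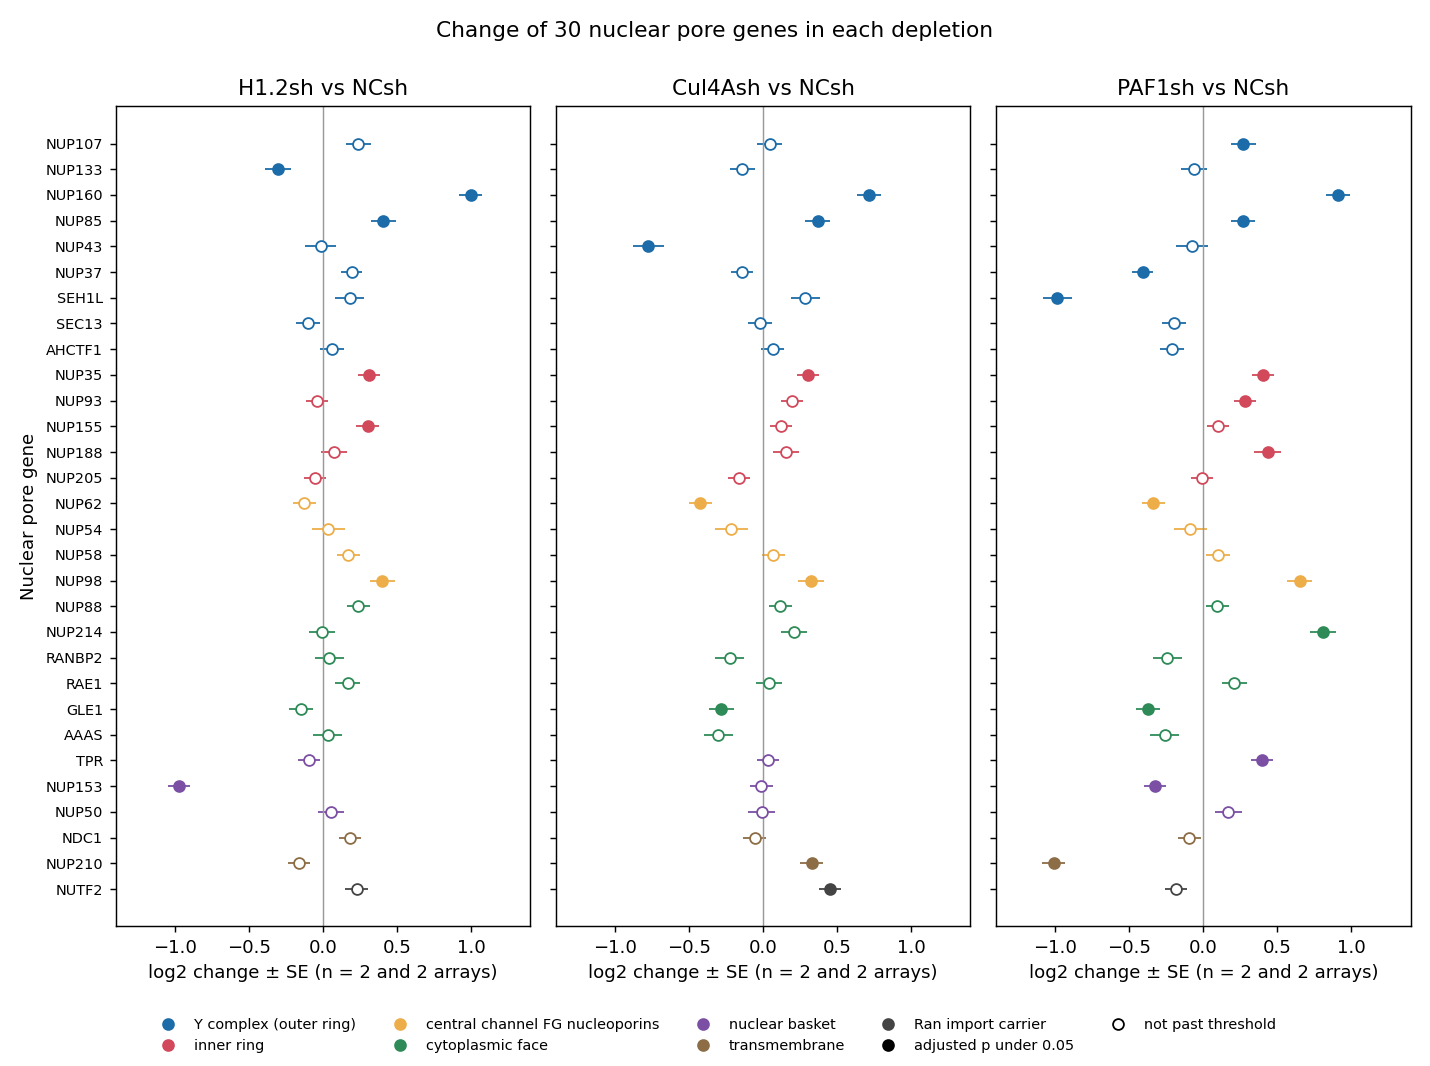
Log2 change against NCsh (x axis, ± SE, 2 arrays per group) of the 30 measured nuclear pore genes (y axis, ordered and coloured by place in the pore), with filled points for genes past the adjusted p of 0.05. NUP160 lies far to the right in all 3 panels, NUP153 far to the left in H1.2sh, NUP43 in Cul4Ash, and SEH1L and NUP210 in PAF1sh.

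In the outer ring NUP160 and NUP85 rose in every depletion, and 5 other members passed in 1 depletion each. Of its 9 genes 33.3%, 33.3% and 55.6% passed in H1.2sh, Cul4Ash and PAF1sh, beside 15.4%, 20.6% and 38.9% of all genes. NUP160 encodes a large subunit of the arms of the Y complex. Its log2 intensity was 8.94 and 8.87 on the NCsh arrays, 9.94 and 9.86 in H1.2sh, 9.62 and 9.62 in Cul4Ash, and 9.75 and 9.88 in PAF1sh. Both control arrays lay below all 6 arrays of the depletions. The change was 1.00 ± 0.08 in H1.2sh (2.0-fold, adjusted p = 4.85e-05), 0.72 ± 0.08 in Cul4Ash (1.64-fold, adjusted p = 0.000222) and 0.91 ± 0.08 in PAF1sh (1.88-fold, adjusted p = 1.79e-05). NUP160 ranked 11 among all genes by size of increase in H1.2sh, while its rank was 106 in Cul4Ash and 131 in PAF1sh. The 3 comparisons share the same 2 control arrays, so a control value that is low by chance would raise all 3. Without NCsh replicate 1 the changes in H1.2sh, Cul4Ash and PAF1sh were 1.04, 0.75 and 0.95, and without NCsh replicate 2 they were 0.96, 0.68 and 0.87. The gene has a single probe on the array.

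SEH1L encodes a subunit at the short arm of the Y that also serves in the GATOR2 complex of nutrient signalling. It was at 8.56 and 8.47 in NCsh, 8.78 and 8.61 in H1.2sh, 8.85 and 8.74 in Cul4Ash, and 7.63 and 7.42 in PAF1sh. The PAF1sh arrays were the lowest by a wide margin, a fall of 0.99 ± 0.10 on the log2 scale (1.98-fold, adjusted p = 3.94e-05). Both other SEH1L probes showed the same fall, by -0.92 ± 0.09 and -0.89 ± 0.10 in PAF1sh. In Cul4Ash the 3 probes disagreed, at 0.28 ± 0.10, 0.03 ± 0.09 and -0.32 ± 0.10, and none passed.

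NUP43, a beta-propeller subunit of the same complex, was lower in Cul4Ash. Its values there were 7.49 and 7.24, against 8.05 and 8.23 in NCsh, 8.03 and 8.22 in H1.2sh and 8.08 and 8.04 in PAF1sh. Both Cul4Ash arrays lay below the other 6, and the change was -0.78 ± 0.11 (1.71-fold lower, adjusted p = 0.000801). NUP37, which pairs with NUP160 in the complex, fell in PAF1sh, from 11.33 and 11.34 to 10.90 and 10.95 (-0.41 ± 0.07, adjusted p = 0.00145). In the other depletions NUP37 did not pass, at 0.19 ± 0.07 in H1.2sh and -0.14 ± 0.07 in Cul4Ash.

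NUP85, at the short arm, rose in each depletion by less: 0.41 ± 0.08 in H1.2sh (adjusted p = 0.00918), 0.37 ± 0.08 in Cul4Ash (adjusted p = 0.0113) and 0.27 ± 0.08 in PAF1sh (adjusted p = 0.0247), again over the same control arrays. With median scaling none of these passed (adjusted p = 0.0661, 0.135 and 0.246). Of the stem subunits, NUP133 fell in H1.2sh (-0.30 ± 0.09, adjusted p = 0.0396) and NUP107 rose in PAF1sh (0.27 ± 0.09, adjusted p = 0.0290, and 0.251 with median scaling). In no depletion did both pass, with NUP107 at 0.24 ± 0.09 in H1.2sh and NUP133 at -0.06 ± 0.09 in PAF1sh. The NUP133 call held in 9 of 18 alternative settings. SEC13, shared with the COPII coat of transport vesicles, did not pass in any comparison on the probe used (-0.20 ± 0.08 in PAF1sh), while its other probe was at -0.37 ± 0.09 in PAF1sh (adjusted p = 0.012 over all probes). AHCTF1, also called ELYS, which recruits the Y complex to chromatin after mitosis, was at 0.06 ± 0.08, 0.06 ± 0.08 and -0.21 ± 0.08 in H1.2sh, Cul4Ash and PAF1sh, none past the threshold. Within 1 subcomplex, PAF1sh had 3 members up and 2 down, from 0.91 for NUP160 to -0.99 for SEH1L. Of all genes, 19% were higher and 19.9% lower there.

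**Figure D2:**
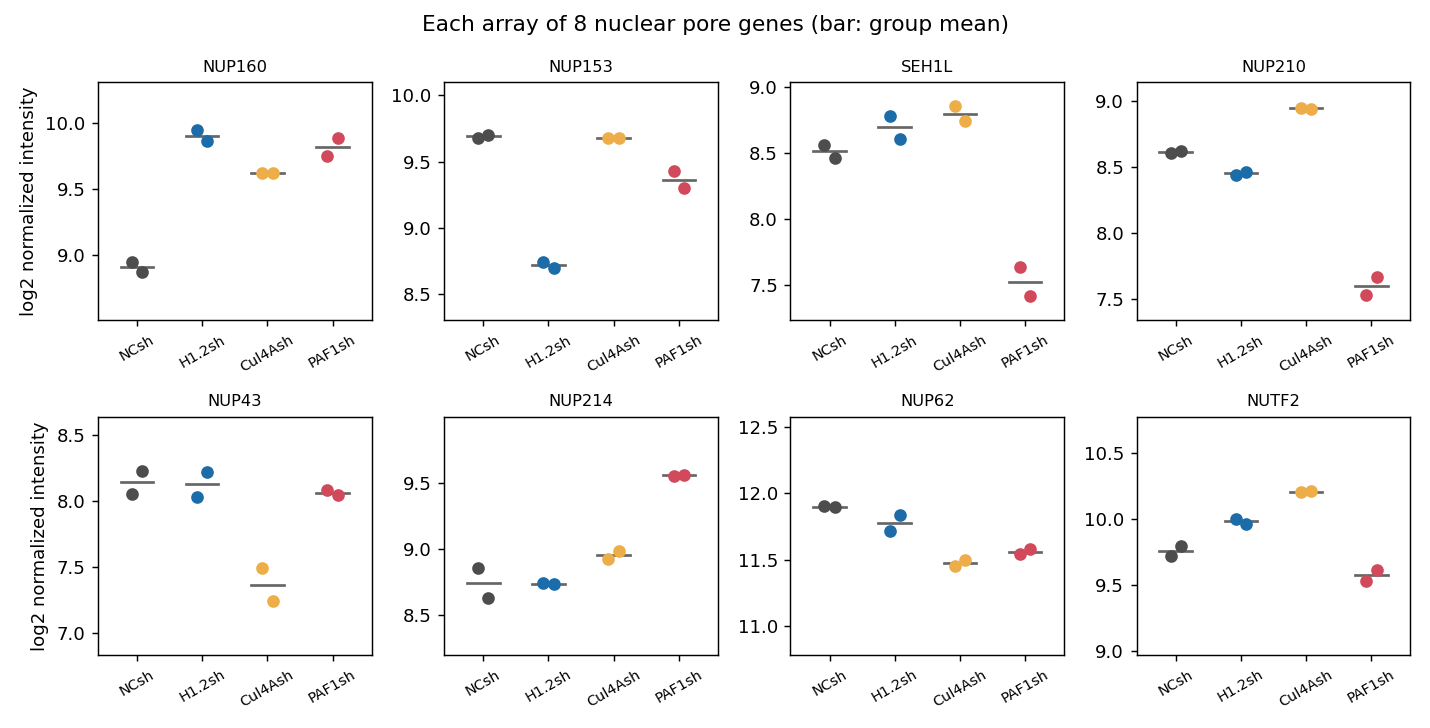
Log2 normalized intensity (y axis, the same span in each panel) of 8 nuclear pore genes on every array (points) with the group mean (bars), for the 4 groups on the x axis. The NUP160 controls at 8.94 and 8.87 lie below all other arrays, the NUP153 arrays of H1.2sh lie at 8.74 and 8.70, and the SEH1L and NUP210 arrays of PAF1sh lie below 7.7.

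In the nuclear basket, NUP153 was the member that fell in H1.2sh. NUP153 is an FG nucleoporin of the basket that binds lamins and chromatin. Its log2 intensity was 9.68 and 9.70 in NCsh and 8.74 and 8.70 in H1.2sh, while Cul4Ash stood at 9.68 and 9.68 and PAF1sh at 9.43 and 9.30. The H1.2sh arrays were below all others, those of Cul4Ash level with the control, and those of PAF1sh between. The change was -0.97 ± 0.08 in H1.2sh (1.96-fold lower, adjusted p = 4.37e-05, rank 69 among all genes by size of decrease), -0.01 ± 0.08 in Cul4Ash (adjusted p = 0.930) and -0.33 ± 0.08 in PAF1sh (adjusted p = 0.00679). Set directly against the other depletions, H1.2sh was lower than Cul4Ash by -0.96 ± 0.08 (adjusted p = 2.55e-05) and lower than PAF1sh by -0.65 ± 0.08 (adjusted p = 0.000113).

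The other basket genes did not follow NUP153. TPR, the coiled-coil protein that forms the basket's struts, was at -0.09 ± 0.07 in H1.2sh, at 0.03 ± 0.07 in Cul4Ash, and rose by 0.40 ± 0.07 in PAF1sh (adjusted p = 0.00193). On the PAF1sh arrays TPR stood at 11.17 and 11.20, above the range of 10.67 to 10.84 on the other 6. That rise was lost with median scaling (adjusted p = 0.0533) and without normalization (adjusted p = 0.0630). NUP50, a basket protein that helps release import cargo, did not pass in any comparison, at 0.05 ± 0.09 (H1.2sh), -0.01 ± 0.09 (Cul4Ash) and 0.17 ± 0.09 (PAF1sh).

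Among the transmembrane nucleoporins NUP210 fell in PAF1sh. NUP210, or gp210, is a pore membrane glycoprotein whose level differs between cell types. It was at 8.61 and 8.62 in NCsh, 8.44 and 8.46 in H1.2sh, 8.95 and 8.94 in Cul4Ash, and 7.54 and 7.67 in PAF1sh. The 4 groups did not overlap: Cul4Ash was highest, then NCsh, H1.2sh and PAF1sh. Against NCsh the change was -1.01 ± 0.08 in PAF1sh (2.02-fold lower, adjusted p = 7.97e-06, rank 152 by size of decrease) and 0.33 ± 0.08 in Cul4Ash (adjusted p = 0.0140), and it was -0.16 ± 0.08 in H1.2sh, not past the threshold. The rise in Cul4Ash was lost with median scaling (0.23, adjusted p = 0.262). Between Cul4Ash and PAF1sh NUP210 differed by 1.34 ± 0.08 (2.53-fold, adjusted p = 1.67e-06). NDC1, which anchors the inner ring in the membrane, was at 0.18 ± 0.08, -0.06 ± 0.08 and -0.09 ± 0.08, none past the threshold.

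Of the 5 inner ring genes, 3 rose in PAF1sh, 2 in H1.2sh and 1 in Cul4Ash, and 0 fell in these comparisons, while 19%, 7.28% and 11% of all genes rose there. NUP35 (also NUP53), a membrane-binding subunit, was at 8.56 and 8.53 in NCsh and between 8.83 and 8.99 on all 6 arrays of the depletions. Its changes were 0.31 ± 0.07 (adjusted p = 0.0192), 0.30 ± 0.07 (adjusted p = 0.0178) and 0.40 ± 0.07 (adjusted p = 0.00171) in H1.2sh, Cul4Ash and PAF1sh, against the same control arrays. A dimmer NUP35 probe gave 0.03 ± 0.13, 0.07 ± 0.13 and 0.25 ± 0.13 and did not pass. NUP188, a large scaffold subunit, rose in PAF1sh from 9.09 and 8.94 to 9.53 and 9.38 (0.43 ± 0.09, adjusted p = 0.00315), NUP93, which links the scaffold to the channel, rose there too (0.28 ± 0.07, adjusted p = 0.0113), and NUP155 rose in H1.2sh (0.30 ± 0.08, adjusted p = 0.0253). NUP205, the paralog of NUP188, did not pass, at -0.05 ± 0.08, -0.16 ± 0.08 and -0.01 ± 0.08. With median scaling the calls for NUP155, for NUP93 and for NUP35 in H1.2sh and Cul4Ash were lost.

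In the central channel NUP62 fell and NUP98 gave conflicting probes. NUP62 forms a trimer with NUP54 and NUP58 that carries the FG repeats of the channel. It was at 11.90 and 11.90 in NCsh, 11.71 and 11.83 in H1.2sh, 11.45 and 11.49 in Cul4Ash, and 11.54 and 11.58 in PAF1sh, so every depletion array lay below both controls. The change passed in Cul4Ash (-0.42 ± 0.08, adjusted p = 0.00378) and PAF1sh (-0.34 ± 0.08, adjusted p = 0.00539) and not in H1.2sh (-0.12 ± 0.08). A second, dimmer NUP62 probe was at -0.32 ± 0.11 in Cul4Ash and -0.21 ± 0.11 in PAF1sh and did not pass (adjusted p = 0.080 and 0.177 over all probes). NUP54 and NUP58 did not pass in any depletion, with changes from -0.22 ± 0.11 to 0.17 ± 0.08.

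The NUP98 gene encodes an FG nucleoporin and, from a longer precursor that is cut after translation, the Y complex subunit NUP96. The probe used stood at 7.10 and 7.09 in NCsh, 7.45 and 7.55 in H1.2sh, 7.50 and 7.34 in Cul4Ash, and 7.70 and 7.79 in PAF1sh. By this probe NUP98 rose by 0.40 ± 0.09 (adjusted p = 0.0114), 0.32 ± 0.09 (adjusted p = 0.0230) and 0.65 ± 0.09 (adjusted p = 0.000209). A second probe went the other way, from 7.32 and 7.27 in NCsh to 6.97 and 6.86 in PAF1sh, a fall of 0.38 ± 0.09 on the log2 scale (adjusted p = 0.00848 over all probes), and was at -0.10 ± 0.09 in H1.2sh and -0.13 ± 0.09 in Cul4Ash. The remaining probe was at 0.08 ± 0.13, -0.07 ± 0.13 and 0.36 ± 0.13 and did not pass. The mean over the 3 probes was 0.21 in PAF1sh (adjusted p = 0.0382). No direction for the separate NUP98 transcripts can be given from these probes, and which transcripts each one reads is not given in the files.

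**Figure D3:**
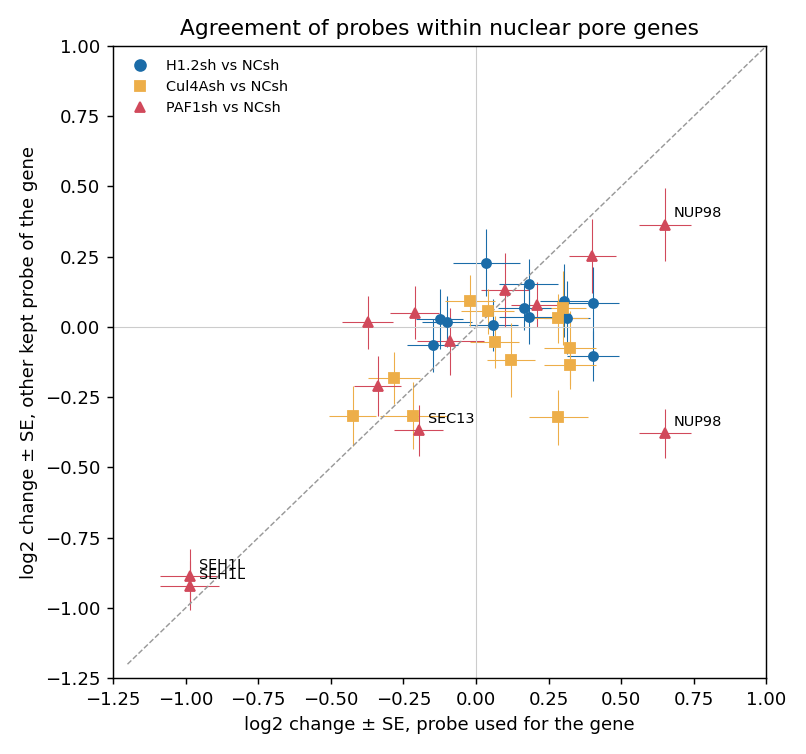
Log2 change against NCsh of the other kept probes (y axis, ± SE) against that of the probe used (x axis, ± SE) for the 10 nuclear pore genes with more than 1 kept probe, by depletion, with the dashed line marking equal values. The SEH1L points of PAF1sh lie on the line near -0.9, and a NUP98 probe lies at -0.38 where the probe used lies at 0.65.

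Among the 10 members with more than 1 kept probe, those with a call against NCsh gave 16 pairs of a call and another probe. The pairs came from GLE1, NUP155, NUP35, NUP62, NUP98 and SEH1L. Calls of NUP98 and SEH1L count once for each other probe. The other probe had the same sign in 11 of the pairs. In 3 pairs it passed over all probes, namely both SEH1L probes in PAF1sh and the NUP98 probe with the opposite sign. For members not yet given with both probes, the other NUP155 probe was at 0.09 ± 0.13 in H1.2sh and the other AHCTF1 probe at 0.05 ± 0.09 in PAF1sh. The other NUP54 probe was at -0.32 ± 0.12 in Cul4Ash and the other RAE1 probe at 0.08 ± 0.08 in PAF1sh, and none of these 4 values passed. The other probes were dimmer than those used, and 20 members have 1 kept probe only, NUP160, NUP153, NUP210, NUP43 and NUP214 among them.

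On the cytoplasmic face, 2 of 6 genes passed in PAF1sh, 1 in Cul4Ash and 0 in H1.2sh, or 33.3%, 16.7% and 0% beside 38.9%, 20.6% and 15.4% of all genes. At an unadjusted p under 0.05, 1 of the 6 passed in H1.2sh (NUP88). NUP214, an FG nucleoporin that docks the export helicase DDX19, was at 8.86 and 8.63 in NCsh, 8.74 and 8.73 in H1.2sh, 8.92 and 8.98 in Cul4Ash, and 9.55 and 9.56 in PAF1sh. The PAF1sh arrays were above all others, and the rise was 0.81 ± 0.09 (1.75-fold, adjusted p = 6.18e-05). PAF1sh also differed directly from H1.2sh (H1.2sh lower by -0.82 ± 0.09, adjusted p = 5.49e-05) and from Cul4Ash (Cul4Ash lower by -0.60 ± 0.09, adjusted p = 0.000360). GLE1, the activator of DDX19, fell in Cul4Ash (-0.28 ± 0.08, adjusted p = 0.0367) and PAF1sh (-0.37 ± 0.08, adjusted p = 0.0050), and a dimmer GLE1 probe was at -0.18 ± 0.09 and 0.02 ± 0.09 there. NUP88, the partner of NUP214, was at 0.24 ± 0.08, 0.11 ± 0.08 and 0.10 ± 0.08, and RAE1, an mRNA export factor, was at 0.17 ± 0.09, 0.04 ± 0.09 and 0.21 ± 0.09, none past the threshold. AAAS, or aladin, was at 0.03 ± 0.10, -0.30 ± 0.10 and -0.26 ± 0.10 (adjusted p = 0.0522 in Cul4Ash and 0.0556 in PAF1sh). RANBP2, the large filament protein that binds Ran, was at 0.04 ± 0.10, -0.23 ± 0.10 and -0.24 ± 0.10. RANBP2 has near-identical copies in the genome (the RGPD genes), so the transcripts its probe reads are uncertain.

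NUTF2, or NTF2, carries Ran back into the nucleus and is the only member that is a carrier rather than a part of the pore. It was at 9.72 and 9.79 in NCsh, 10.00 and 9.97 in H1.2sh, 10.21 and 10.21 in Cul4Ash, and 9.53 and 9.61 in PAF1sh. The groups did not overlap, with Cul4Ash highest and PAF1sh lowest. Against NCsh the rise passed in Cul4Ash (0.45 ± 0.07, 1.37-fold, adjusted p = 0.00246), though not with median scaling (0.34, adjusted p = 0.0638), and the changes of 0.23 ± 0.07 in H1.2sh and -0.18 ± 0.07 in PAF1sh did not pass. NUTF2 was higher in Cul4Ash than in PAF1sh by 0.63 ± 0.07 (adjusted p = 0.000103).

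The depletions were then set against each other. The control arrays do not enter these differences directly, though they share in the normalization, the spread, the detection filter and the choice of probe. Between H1.2sh and Cul4Ash, 6 members were higher in H1.2sh and 3 lower, 30% of the members against 22.6% of all genes (10.2% higher and 12.4% lower). Between H1.2sh and PAF1sh, 9 were higher in H1.2sh and 7 lower, 53.3% against 40.2% (19.8% higher and 20.4% lower). Between Cul4Ash and PAF1sh, 6 were higher in Cul4Ash and 5 lower, 36.7% against 41% (21.2% higher and 19.8% lower). With median scaling these counts were 1 and 2, 4 and 5, and 3 and 4. Those of all genes were then 705 and 1002, 1670 and 2238, and 1873 and 2090. Some calls between H1.2sh and Cul4Ash, and between H1.2sh and PAF1sh, were lost without any 1 array of the groups compared. Fewer of all genes passed then too, with 1 array left in that group. The largest differences between H1.2sh and Cul4Ash were those of NUP153 (given above), NUP43 (0.76 ± 0.11, adjusted p = 0.000795) and NUP210 (-0.49 ± 0.08, adjusted p = 0.0015). SEH1L separated PAF1sh from both others, by 1.17 ± 0.10 for H1.2sh (adjusted p = 1.29e-05) and 1.27 ± 0.10 for Cul4Ash (adjusted p = 8.41e-06). AHCTF1 also passed in these comparisons, at 0.27 ± 0.09 and 0.28 ± 0.09 (adjusted p = 0.0349 and 0.0320 over all probes). Its other probe had the opposite sign there, at -0.04 ± 0.09 and -0.11 ± 0.09, and did not pass. NUP160, which rose in all 3, was higher in H1.2sh than in Cul4Ash by 0.28 ± 0.08 (adjusted p = 0.0312, and 0.120 with median scaling), and it did not pass between H1.2sh and PAF1sh (0.09 ± 0.08) or between Cul4Ash and PAF1sh (-0.19 ± 0.08). The members SEC13, NUP205, NUP54, NUP58, NUP88, RAE1 and NUP50 did not pass in any of the 6 comparisons on the probe used. The other NUP54 probe was higher in H1.2sh than in Cul4Ash (0.54 ± 0.12, adjusted p = 0.0127 over all probes). The other SEC13 probe was higher in H1.2sh and in Cul4Ash than in PAF1sh. Its differences were 0.39 ± 0.09 and 0.46 ± 0.09 (adjusted p = 0.00866 and 0.00309 over all probes).

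Calls of different size held up differently. In PAF1sh, NUP160, NUP210, NUP214, SEH1L and NUP98 passed in all 18 alternative settings, NUP98 with a second probe that went the other way. The other 10 calls in PAF1sh held in 11 to 17 settings, the fewest being those of NUP107 and NUP85 (11 each) and NUP93 (12). In H1.2sh, NUP160 and NUP153 passed in 17 of 18, the exception being the background correction neqc on the 5 scanner arrays with undisputed names. In that setting each depletion had 1 array and calls were lost across all genes, so a loss there says nothing of these genes in particular. The other 5 calls in H1.2sh held in 8 to 13 settings, and all 5 were lost without NCsh replicate 1. Leaving out any NCsh or H1.2sh array left 1 array in that group, and fewer of all genes passed in H1.2sh then too. In Cul4Ash, NUP160, NUP43 and NUP62 held in 17 of 18, NUTF2 in 16, and the other 5 (GLE1, NUP210, NUP35, NUP85 and NUP98) in 7 to 12. Without any 1 NCsh or Cul4Ash array some calls in Cul4Ash were lost. Fewer of all genes passed there too, with 1 array left in that group. Every call kept its direction in all 18 settings, most of which read the same probe on the same arrays.

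Genes that work with the pore were counted in 4 further lists, also chosen with earlier results of these data known. Of 24 importins and exportins, which carry cargo through the pore, 4 rose and 0 fell in H1.2sh, 2 rose and 4 fell in Cul4Ash, and 3 rose and 9 fell in PAF1sh, with median changes of 0.07, -0.10 and -0.16. The shares past the threshold were 16.7%, 25% and 50%, beside 15.4%, 20.6% and 38.9% of all genes. TNPO1, the carrier of RNA-binding proteins, was at 9.21 and 9.24 in NCsh, 9.88 and 9.82 in H1.2sh, 8.81 and 8.85 in Cul4Ash, and 8.29 and 8.29 in PAF1sh. It rose by 0.62 ± 0.07 in H1.2sh (adjusted p = 0.000317) and fell by 0.40 ± 0.07 in Cul4Ash (adjusted p = 0.00407) and by 0.93 ± 0.07 in PAF1sh (adjusted p = 9.06e-06). In PAF1sh IPO11 fell most (-0.99 ± 0.07, adjusted p = 7.27e-06), and CSE1L, which returns importin alpha to the cytoplasm, fell by 0.70 ± 0.07 (adjusted p = 4.96e-05). In Cul4Ash the importin alpha gene KPNA4 fell by 0.82 ± 0.08 (adjusted p = 0.00012) and the importin beta gene KPNB1 by 0.53 ± 0.09 (adjusted p = 0.00355). In H1.2sh KPNA3 rose by 0.55 ± 0.10 (adjusted p = 0.00453) and XPO4 by 0.39 ± 0.08 (adjusted p = 0.00785).

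Of 8 genes of the Ran cycle 6 were measured, and in PAF1sh 5 of these fell and 1 rose, with a median change of -0.37, where 19.9% of all genes fell and 19% rose. Those with the largest changes were RANBP1, a cofactor of the Ran GTPase-activating protein (-0.60 ± 0.08, adjusted p = 0.000341), RCC1, the chromatin-bound exchange factor of Ran (-0.58 ± 0.13, adjusted p = 0.00538), and RANBP3, which rose (0.50 ± 0.10, adjusted p = 0.00207). In H1.2sh 0 of the 6 passed with limma, and at an unadjusted p under 0.05 0 did, while in Cul4Ash 1 fell, RANGAP1 (-0.27 ± 0.07, adjusted p = 0.0260). Of 21 measured mRNA export genes, 3 rose and 1 fell in H1.2sh, 4 rose and 1 fell in Cul4Ash, and 7 rose and 3 fell in PAF1sh, which is 19.0%, 23.8% and 47.6% of them and near the shares of all genes given above. Those with the largest changes were DDX19A in H1.2sh (-0.38 ± 0.09), THOC6 in Cul4Ash (-0.40 ± 0.10) and NUP42, a partner of GLE1, in PAF1sh (0.46 ± 0.10). DDX19A and DDX19B are close copies, so their separate values are uncertain. Of 16 measured genes of the nuclear lamina and envelope, 0 rose and 1 fell in H1.2sh, 1 rose and 4 fell in Cul4Ash, and 2 rose and 3 fell in PAF1sh. These are 6.25%, 31.2% and 31.2%, beside 15.4%, 20.6% and 38.9% of all genes. The largest change there was that of TOR1AIP2 in PAF1sh (-0.85 ± 0.10, adjusted p = 9.41e-05), whose probe was above background on 6 of 7 arrays.

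**Figure D4:**
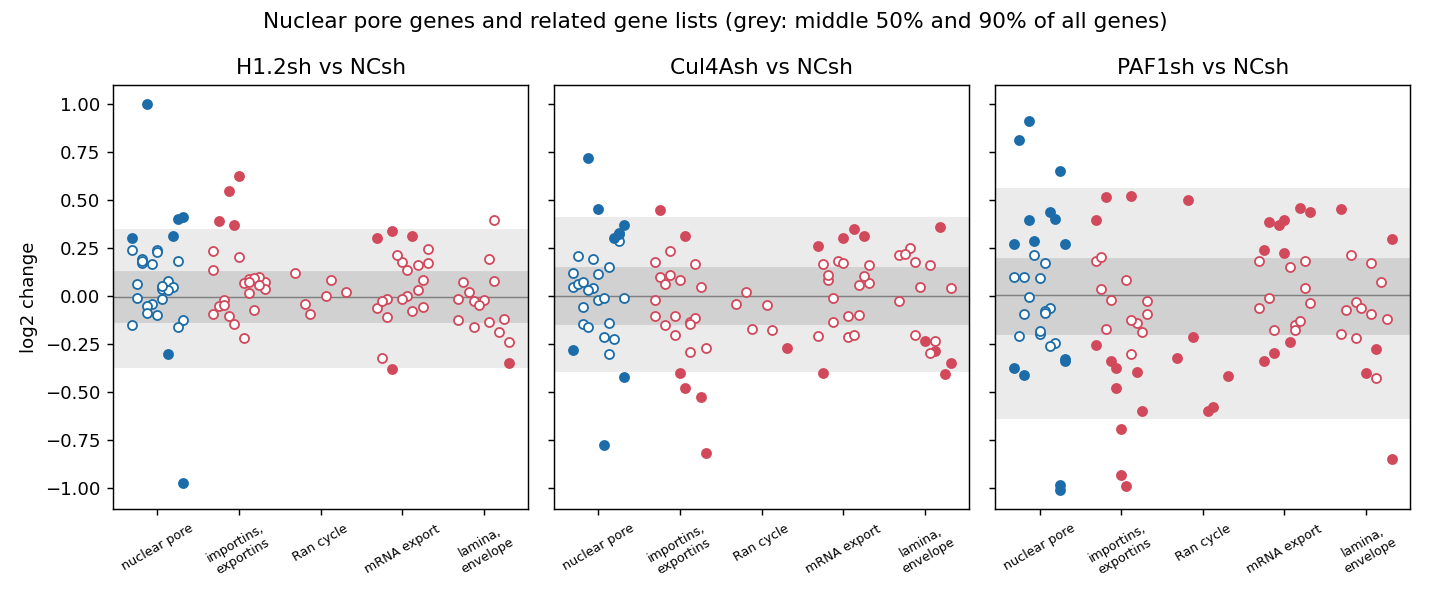
Log2 change against NCsh (y axis) of the nuclear pore genes (blue) and of the 4 related lists (red), 1 point per gene and filled where the adjusted p was under 0.05, with the middle 50% and 90% of all 12300 genes in dark and light grey. In PAF1sh 5 of the 6 Ran cycle genes lie below 0, and the nuclear pore genes spread to both sides in every panel.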

How the data were processed

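Total RNA was isolated with TRIzol and made into biotinylated cRNA to be hybridised on Illumina arrays, according to the labels' protocols, and no scanner software is named there. The authors' deposited scanner table gives a signal intensity and a detection p-value per probe for 7 arrays (2 of its columns are empty), and their deposited series matrix gives a linear intensity for all 8. Set against the scanner signals, the matrix is background-adjusted and not normalized between arrays, by a method the sources do not state. The scanner columns named H1.2sh-2 and Cul4Ash-2 hold the signals that the matrix assigns to Cul4Ash (replicate 2) and PAF1sh (replicate 2), so the matrix, tied to samples by accession, was used. The scanner table served for detection, and its signals were used in the neqc alternative only.

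Matrix intensities were log2 transformed and quantile normalized over all probes with 8 values. The filter on dim probes required a detection p under 0.05 on at least 2 of 7 arrays, which 22131 probes met. Genes were named from GEO's platform annotation: 30109 probes had 1 gene symbol, 8 several and 17103 none, and 30070 were looked up by Entrez ID in RefSeq (GRCh38.p14), which changed 0 symbols. The kept probe with the highest mean stood for its gene, giving 12300 genes. The 8 arrays were fitted in limma 3.58.1 under R 4.3.3, 1 mean per group (4 residual and 6.19 prior degrees of freedom), and p-values were Benjamini-Hochberg adjusted over all genes. The fit was tested on simulated data.

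The members, gene lists and motifs were chosen with earlier results of these data known. All members could be named, and of each further list up to 3 genes per comparison, those with the largest change past the threshold. Alternatives were other scalings, filters and probe rules, neqc background correction, the replicate number as a block and leaving out each array. Promoter sequences are RefSeq's.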

Additional observations from a re-analysis of the deposited data

How the results depend on the processing

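Of 18 alternatives, 2 were added after seeing the data: the matrix values of the 5 arrays that neqc could use, and quantile normalization after the filter on dim probes. The counts of members past the threshold were 7, 9 and 15 in H1.2sh, Cul4Ash and PAF1sh against NCsh and 9, 16 and 11 between H1.2sh and Cul4Ash, H1.2sh and PAF1sh, and Cul4Ash and PAF1sh. In that order of the 6 comparisons, median scaling gave 3, 5, 11, 3, 9 and 7, no normalization between arrays 3, 4, 10, 3, 9 and 6, and keeping dim probes 4, 6, 13, 4, 10 and 9. With dim probes kept, 465 of all 20038 genes rose and 570 fell in H1.2sh, against 896 and 1003 of 12300 in the main fit. In Cul4Ash these counts were 865 and 716 against 1358 and 1181, and in PAF1sh 1871 and 2053 against 2336 and 2448. The mean over all kept probes gave 4, 6, 15, 11, 15 and 10, and each probe fitted on its own 6, 8, 15, 5, 11 and 11. Normalization after the filter, the order used at first and then changed, left all member calls as they were. A stricter detection filter gave 10, 11, 21, 11, 18 and 13. Of all 8927 genes it kept, 1142 were higher and 1146 lower in the first comparison. In the others these counts were 1573 and 1319, 2344 and 2330, 1364 and 1629, 2352 and 2424, and 2451 and 2290. With neqc on 5 arrays limma called 0, 0, 5, 0, 2 and 2 (at an unadjusted p under 0.05: 5, 9, 12, 4, 7 and 6), while quantile-normalized matrix values for those 5 arrays gave 3, 5, 11, 3, 9 and 6. Leaving out 1 array gave 2 to 7, 5 to 9, 13 to 16, 3 to 9, 9 to 14 and 9 to 11. The 5-array and leave-one-out settings hold fewer samples, with 1 array in a group, and fewer of all genes passed there too. The cause of the other losses was not tested. No call reversed under any alternative, but most of them read the same probes on the same arrays, so a reversal was unlikely from the start. Other probes of members called against NCsh had the same sign in 11 of 16 pairs.

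The replicate block, on numbers the groups share in their labels, gave 6, 10, 15, 7, 12 and 11 members. Differences between replicates 1 and 2 correlated at -0.13 to 0.11 between groups over the genes, so the numbers were not taken to pair the arrays. With 2 arrays per group small changes remain undetected, and signal close to background limits NUP58, RANBP2 and NUP98.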
